A study of Mus musculus with 3 samples.

Results

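The transcripts of 10 receptor genes, through which intestinal epithelium can receive cytokines made by lymphoid cells, were examined in IEC taken from SIO co-cultured with ILC3. SIO, or small intestinal organoids, are epithelial structures that grow from crypts in a gel matrix. The 10 genes were listed by name. No level or difference entered the rule, but earlier results of these data were known when they were chosen. Ifngr1 and Ifngr2 form the receptor of IFN-gamma, and Il17ra and Il17rc that of IL-17A and IL-17F. Il4ra and Il13ra1 bind IL-4 and IL-13. The others were the lymphotoxin beta receptor Ltbr, the TNF receptor Tnfrsf1a, and the shared signalling chains Il6st (gp130) and Il2rg (the common gamma chain). The set made up 10 of 35824 genes in the count table, and 9 of the set had a count in at least 1 library.

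All 3 libraries belong to a single group, IEC + ILC3, and are named A, B and C after the labels, which number them as biological replicates 1, 2 and 3. Organoids came from female CD45.1 C57BL/6 mice, 6 to 8 weeks old by the sample labels and up to 10 weeks by the series' design text, and were cultured for 4 days with ILC3 of the small intestinal lamina propria of GFP reporter mice, in organoid medium that held EGF, R-spondin and Noggin and to which IL-2, IL-7 and IL-15 had been added. EpCAM+ epithelial cells were then sorted and sequenced after SMART-Seq2 amplification. The labels mark A and B as used and C as left out in the authors' final analysis, and without the IEC ONLY libraries, which were not analysed here, co-cultured epithelium is not compared with unexposed epithelium. Nothing in the labels says that the replicates came from separate mice or cultures, so p-values speak for these libraries only. The spread they rest on is that between A and B, since C stands alone on its side of the comparison. All 3 libraries share the added cytokines, and the organoids hold no stroma and were given no immune cells other than ILC3.

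Cytokine receptors of this kind work as assemblies. Most pair a ligand-binding chain with another chain, whereas receptors of the TNF family assemble as trimers, and kinases or adaptor proteins bound to their cytoplasmic parts carry the signal: JAK kinases and STAT factors for IFN-gamma, IL-4, IL-13, IL-22 and the IL-6 family, the adaptor Act1 and TRAF6 for IL-17, and TRAF adaptors with NF-κB for TNF and lymphotoxin. In the gut these routes are known for antimicrobial defence, mucus and IgA transport, epithelial repair and the responses to helminths, and ILC3 are a known source of IL-22, IL-17 and lymphotoxin. A paired complex needs every chain, so each chain is given beside its partners.

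The libraries held 17946361, 23142849 and 28913885 counts in A, B and C, and 12549, 12964 and 11986 genes reached 10 counts. Epithelial markers were high in each. Krt8, Krt18 and Krt19, keratins of simple epithelia, stood at 4883, 1038 and 2185 CPM in A, at 5403, 1294 and 2044 in B, and at 5835, 1965 and 2826 in C. Epcam, Cdh1, Vil1, Cldn7 and Elf3 were all lowest in C, with Epcam at 1663, 1720 and 1133 CPM and Vil1 at 434, 455 and 269. None of the 10 epithelial markers was called different in C, their median log2 fold change was −0.30, and their summed level, most of it keratins, ran from 12669 to 13857 CPM. Of 25 leukocyte and ILC markers, 11 were at 0 in every library, none was called, and their CPM summed to 102, 81.2 and 82.0. Ptprc, which encodes CD45, had 1, 0 and 0 counts, Cd52 had 7, 0 and 18, and Il7r had 1, 2 and 0. Lcp1 was measured at 38.2, 26.2 and 31.6 CPM, and Id2 at 10.0, 16.5 and 10.2. Of 11 stromal and endothelial markers 7 were at 0, the sum was 4.91, 6.79 and 1.78 CPM, and 1, Vim, was called lower in C, where it was at 0.

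CPM are counts scaled to a common library total after TMM correction for differences in composition, and CPM per kilobase divides them by the length of a gene's merged exons so that genes can be set beside each other. The difference of library C from the other libraries was tested with the quasi-likelihood method of edgeR over 13604 genes, and a gene is called at an adjusted p under 0.1, the FDR of the study. This test compares libraries and not conditions, rests on 1 residual degree of freedom per gene, and takes C to vary like A and B. In it 898 genes were called, or 6.6% of those tested, 711 of them lower in C (5.23%) and 187 higher (1.37%). The median log2 fold change over all genes tested was −0.10, and C lay below both A and B for 41.2% of genes.

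The receptor transcripts differed widely in abundance. Ifngr1 was the most abundant of the 10 in every library, at 135 ± 37.0 CPM per kilobase (SD, n = 3), which placed it 444 among 17369 genes with a symbol and a count. Next came Ifngr2 at 50.4 ± 6.64, Ltbr at 38.2 ± 12.3, Il17rc at 30.3 ± 11.7, Il13ra1 at 20.8 ± 1.97 and Tnfrsf1a at 17.4 ± 9.86 CPM per kilobase. Il4ra at 5.49 ± 3.48, Il17ra at 2.47 ± 0.543 and Il6st at 0.891 ± 0.559 CPM per kilobase followed, and Il2rg had no count in any library.

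Only 3 steps in this order separated neighbours whose library values did not overlap: Ifngr1 from Ifngr2, Il17ra from Il6st, and Il6st from Il2rg. Between Ifngr2 and Il17ra every neighbouring pair overlapped. Ltbr stood above Ifngr2 in B alone. In C, Il13ra1 stood above Il17rc, and Il4ra below Il17ra. Tnfrsf1a stood above Il13ra1 in A and B, and below it only in C. With the length of the longest transcript in place of merged exons, Ifngr1 stood at 182 CPM per kilobase, and Tnfrsf1a (20.9) and Il13ra1 (20.8) changed places.

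**Figure D1:**
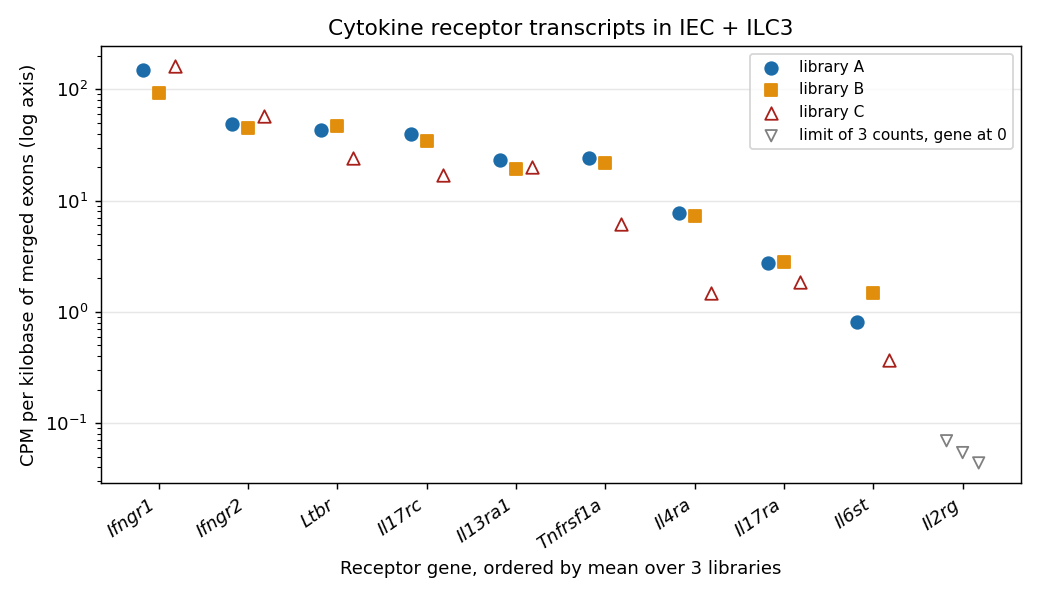
Level of each receptor gene in CPM per kilobase of merged exons, on a log axis, with a point for each library (A circles, B squares, C open triangles); grey triangles mark the level that 3 counts would give in each library, for Il2rg, which had no count. Ifngr1 lies highest, from 93.0 to 163, and the points of C sit clearly below those of A and B for Tnfrsf1a and Il4ra.

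The sequences just upstream of Ifngr1 and Il2rg are shown because these genes are the ends of the range, the most abundant receptor and the one without a count. Both come from RefSeq, build GRCm38.p6, cover the 250 bases before the annotated start, and run 5′ to 3′ on the gene's own strand. Capitals mark the GC box, GGGCGG or its complement CCGCCC, and the ETS-family core CCGGAAG, both searched on both strands. The Ifngr1 window is chr10:19591699-19591948 on the plus strand, and the Il2rg window is chrX:101268256-101268505 on the minus strand.
Ifngr1: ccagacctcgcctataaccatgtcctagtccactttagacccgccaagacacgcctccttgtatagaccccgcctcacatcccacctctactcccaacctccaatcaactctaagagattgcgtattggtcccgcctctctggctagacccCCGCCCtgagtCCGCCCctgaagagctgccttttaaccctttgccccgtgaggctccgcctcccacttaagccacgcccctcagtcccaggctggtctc
Il2rg: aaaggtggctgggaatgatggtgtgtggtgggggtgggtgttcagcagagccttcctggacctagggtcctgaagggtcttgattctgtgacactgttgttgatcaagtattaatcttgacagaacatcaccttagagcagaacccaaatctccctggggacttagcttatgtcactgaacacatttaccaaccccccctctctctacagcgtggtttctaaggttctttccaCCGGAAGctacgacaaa

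The Ifngr1 window held 11 CG dinucleotides and the Il2rg window 3, against a median of 6 over 27025 gene promoters of this length. Of the 10 receptor genes, 9 had a promoter in the table and Il17ra was not in it. Il6st (26), Ifngr2 (25), Il13ra1 (21), Ltbr (18) and Il4ra (17) were all richer in CG than Ifngr1, while Tnfrsf1a had 9 and Il17rc 4. A GC box was present in 6 of the 9, all but Il17rc, Tnfrsf1a and Il2rg, and in 32.9% of all promoters. The ETS-family core was present in Tnfrsf1a and Il2rg, and in 7.05% of all promoters. The windows follow RefSeq starts, which can differ from the GENCODE gene positions given here. The Tnfrsf1a window, chr6:125349473-125349722, lay wholly inside the GENCODE gene, and those of Il4ra and Il17rc ran past the gene's start. For Ifngr2, the bases after the RefSeq start were not found near the start of a GENCODE transcript. The CG count did not order the genes by level, since Il6st had the richest window and the lowest level above 0.

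IFN-gamma is bound by the Ifngr1 chain, and Ifngr2 brings in the second JAK kinase. Ifngr1 (ENSMUSG00000020009, chr10:19591949-19610229, plus strand) had 7711, 6118 and 13282 counts in A, B and C, or 425, 265 and 463 CPM. The low library was B, and A and C lay close together. Between C and the mean of A and B the log2 difference was 0.43 with a standard error of 0.34 and was not called (edgeR adjusted p = 0.486). The mean of A and B was 345 ± 114 CPM (SD, n = 2), and A and B were further from each other than C was from their mean.

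Ifngr2 (ENSMUSG00000022965, chr16:91547072-91565623, plus strand) had 3345, 3887 and 6229 counts, or 185, 168 and 217 CPM. The libraries lay close together, with C just above A and B. The log2 difference of C was 0.30, standard error 0.28, and was not called (edgeR adjusted p = 0.549). Per kilobase, Ifngr1 exceeded Ifngr2 by 3.05-fold in A, 2.08-fold in B and 2.82-fold in C, so both chains were plentiful in each library and the signalling chain was the scarcer.

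The kinases of this receptor were measured as well. Jak1, which serves the receptors of IFN-gamma, IL-4, IL-13, IL-22 and gp130, was at 93.2, 103 and 103 CPM, and Jak2 at 15.5, 13.5 and 21.5. Neither was called.

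Among 21 genes known to respond to IFN-gamma, 12 were tested, 1 was called lower in C and none higher, with a median log2 fold change of −0.70 beside −0.10 for all genes. Of the 12, 7 had 10 counts in every library and 3 were at 0 in C, so the median leans on genes with few counts. Irf1, a transcription factor gene that IFN-gamma induces, was at 122, 143 and 58.0 CPM in A, B and C. Its fall in C was 2.28-fold (log2 fold change −1.19, standard error 0.31, edgeR adjusted p = 0.0873). B2m, the light chain of MHC class I, was at 308, 337 and 296 CPM, and Irgm1, an immunity-related GTPase, at 24.8, 24.7 and 26.0, with no call for either. Psmb9, a subunit of the immunoproteasome, had 129, 125 and 214 counts, and Tap1, a peptide transporter, 123, 228 and 223. Other genes of the list were at or near 0, where Gbp2, Gbp3, Gbp6 and Ido1 had no count in any library, Cxcl9 had 1, 0 and 0 counts, Cxcl10 8, 27 and 56, and Gbp7 0, 31 and 0.

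IL-17A and IL-17F signal through a receptor of Il17ra and Il17rc. Il17ra, which is also the shared chain for IL-17C and IL-25, was the scarcer by far. Il17ra (ENSMUSG00000002897, chr6:120463247-120487559, plus strand) had 432, 565 and 459 counts, or 23.8, 24.4 and 16.0 CPM. A and B were almost equal, at 24.1 ± 0.43 CPM (SD, n = 2), and C lay lower. The log2 difference of C was −0.59, standard error 0.40, and was not called (edgeR adjusted p = 0.393).

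Il17rc (ENSMUSG00000030281, chr6:113471427-113483140, plus strand) had 1914, 2108 and 1307 counts, or 106, 91.2 and 45.6 CPM. C held the lowest value, although it was the library with the most counts in total. The difference was 2.16-fold (log2 fold change −1.11, standard error 0.31) and was called by a narrow margin (edgeR adjusted p = 0.0996). The call did not survive DESeq2 size factors (adjusted p = 0.101), removal of the trend with transcript length (0.103) or removal of the trend with GC content (0.198). Per kilobase, Il17rc exceeded Il17ra by 14.4-fold in A, 12.1-fold in B and 9.23-fold in C.

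The chains that redirect Il17ra to other ligands were low. Il17re, the partner for IL-17C, had 66, 170 and 118 counts, or 0.621, 1.25 and 0.701 CPM per kilobase. Il17rb, the partner for IL-25, had 67, 41 and 8 counts, or 0.997, 0.479 and 0.0753 CPM per kilobase, and the difference was not called (edgeR adjusted p = 0.256). Il17rd, a relative known to modulate IL-17 and FGF signals, had 64, 247 and 108 counts.

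Of the adaptors behind the IL-17 receptor, Traf3ip2, which encodes Act1, was at 44.5, 23.3 and 25.2 CPM. Traf6, the ubiquitin ligase recruited by Act1, had 652, 959 and 70 counts, or 36.0, 41.5 and 2.44 CPM. C stood far apart from A and B, and Traf6 was 15.8-fold lower there (log2 fold change −3.99, standard error 0.46, edgeR adjusted p = 0.0145). Tab2, which links TRAF6 to the kinase TAK1, moved the other way, from 14.0 and 14.5 CPM in A and B to 37.0 in C (log2 fold change 1.38, standard error 0.37, edgeR adjusted p = 0.0963).

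Among 14 IL-17 target genes 11 were tested, with 1 lower in C and none higher and a median log2 fold change of −0.26. The gene called was Lcn2, which encodes the siderophore-binding protein lipocalin-2, with 185, 305 and 0 counts. In C it was at least 112-fold lower, taking 3 counts as the limit of that library (edgeR adjusted p = 0.0151). Pigr, the carrier of IgA across the epithelium, was by far the most abundant target at 3077, 2151 and 2180 CPM. The chemokine gene Ccl20 was at 74.8, 65.9 and 117 CPM and the NADPH oxidase gene Nox1 at 64.6, 80.6 and 69.1, none of them called. Nfkbiz, a coactivator that IL-17 induces, was at 112, 116 and 66.4 CPM and was not called (edgeR adjusted p = 0.172).

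IL-4 and IL-13 act on epithelium through a receptor made of Il4ra and Il13ra1. In C, Il4ra was called lower and Il13ra1 was not, and the difference between their changes was not tested. Il13ra1 (ENSMUSG00000017057, chrX:36112110-36171259, plus strand), which binds IL-13, had 1549, 1659 and 2128 counts, or 85.5, 71.8 and 74.2 CPM. The mean was 77.2 ± 7.30 CPM (SD, n = 3), the smallest relative spread among the receptors, and C lay between A and B. The log2 difference was −0.08, standard error 0.30 (edgeR adjusted p = 0.895).

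Il4ra (ENSMUSG00000030748, chr7:125552120-125579474, plus strand), the signalling chain for both ligands, had 845, 1001 and 255 counts, or 46.6, 43.3 and 8.89 CPM. A and B overlapped in their 95% counting intervals, 43.5 to 49.9 and 40.7 to 46.1 CPM, while that of C ran from 7.84 to 10.1. Il4ra was 5.05-fold lower in C (log2 fold change −2.34, standard error 0.38, edgeR adjusted p = 0.0286). It was called in 8 of 8 alternative fits, with adjusted p between 8.44e-06 and 0.0805, the highest with the GC trend removed. Per kilobase, Il13ra1 exceeded Il4ra by 2.96-fold in A, 2.68-fold in B and 13.5-fold in C.

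IL-4 can also signal through Il4ra with Il2rg, and no transcript of that second chain was counted. Il13ra2, the IL-13 receptor that is known to act as a decoy, had no count in any library either. Stat6, the factor that IL-4 and IL-13 activate, was the most abundant of the JAK and STAT genes per kilobase, with 197, 178 and 137 CPM, and was not called.

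Of 8 genes known to respond to IL-4 and IL-13, 4 had no count in any library, among them Gsdmc2, Gsdmc3 and Gsdmc4. The other 4 were tested, 1 was lower in C and none higher. Their median log2 fold change was positive, 0.996, the midpoint of Socs1 (−1.39) and Retnlb (3.38). Retnlb had few counts in A and B, and Arg1, which lay above it, had none there. Clca1, a goblet cell secretory product, had 2380, 3186 and 628 counts, or 131, 138 and 21.9 CPM. Its fall in C was 6.14-fold (log2 fold change −2.62, standard error 0.32, edgeR adjusted p = 0.0155). Retnlb, a goblet cell gene strongly induced by IL-13 in vivo, had 0, 7 and 48 counts, Arg1 had 0, 0 and 52, and the feedback inhibitor Socs1 had 26, 81 and 27, none of them called.

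Ltbr and Tnfrsf1a belong to the TNF receptor superfamily and lie on chromosome 6 only 35476 bases apart, and with Il17ra and Il17rc they make 4 of the 10 genes on that chromosome. Ltbr receives membrane lymphotoxin and LIGHT. Ltbr (ENSMUSG00000030339, chr6:125306571-125313885, minus strand) had 1837, 2572 and 1634 counts, or 101, 111 and 57.0 CPM. C was the lowest of the 3 and did not reach the values of A and B. The log2 difference was −0.90, standard error 0.30, and was not called (edgeR adjusted p = 0.138). It was called in 3 of 8 alternatives, with no filter on low counts, with at least 10 counts in every library and with the DESeq2 Wald test.

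Tnfrsf14, which also binds LIGHT, was far scarcer than Ltbr. It had 31, 34 and 18 counts, or 1.19, 1.02 and 0.437 CPM per kilobase. Ltbr exceeded it per kilobase by 36.2-fold in A, 46.2-fold in B and 55.5-fold in C. The kinase gene downstream of Ltbr, Map3k14 (NIK), was at 4.41, 5.19 and 2.65 CPM, and Nfkb2, whose product NIK directs into its processed form, at 55.6, 82.2 and 30.3. Neither was called.

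Tnfrsf1a (ENSMUSG00000030341, chr6:125349362-125362484, plus strand), the widely expressed TNF receptor with a death domain, had 1142, 1306 and 455 counts, or 63.0, 56.5 and 15.9 CPM. The 95% counting intervals of A and B, 59.4 to 66.8 and 53.5 to 59.7 CPM, lay well above that of C, 14.4 to 17.4. Tnfrsf1a was 3.76-fold lower in C (log2 fold change −1.91, standard error 0.34, edgeR adjusted p = 0.0376). It was called in 8 of 8 alternatives, with adjusted p from 5.83e-05 to 0.0998. The highest came with the GC trend removed, where the call was by a narrow margin.

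The second TNF receptor gave another picture. Tnfrsf1b, which has no death domain and responds best to membrane-bound TNF, had 488, 759 and 794 counts, or 26.9, 32.8 and 27.7 CPM, with a log2 difference of −0.11 (edgeR adjusted p = 0.883). Per kilobase, Tnfrsf1a exceeded Tnfrsf1b by 3.45-fold in A and 2.54-fold in B, and in C the ratio was 0.844. Whether the differences of these genes differed from each other was not tested.

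Behind these receptors, Tradd, the adaptor of the death domain, was at 58.8, 59.6 and 87.3 CPM, the NF-κB subunit gene Rela at 109, 115 and 109, and the IκB kinase gene Chuk at 126, 73.2 and 69.2. Ripk1, the kinase that Tradd recruits, was at 50.1, 46.9 and 21.8 CPM and just missed a call (edgeR adjusted p = 0.108). Over the 18 transducers of IL-17, TNF and lymphotoxin all were tested, 1 was lower in C (Traf6), 1 higher (Tab2), and the median log2 fold change was −0.29.

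None of the 9 TNF and lymphotoxin targets tested, of 11 listed, was called in either direction, and their median log2 fold change was 0.08. Nfkbia, the inhibitor that NF-κB induces, was at 263, 343 and 321 CPM, similar in C to A and B. The chemokine gene Cxcl16 was at 45.9, 81.1 and 99.2 CPM. Tnfaip2, another target, had 36, 60 and 0 counts and was not called (edgeR adjusted p = 0.106).

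**Figure D2:**
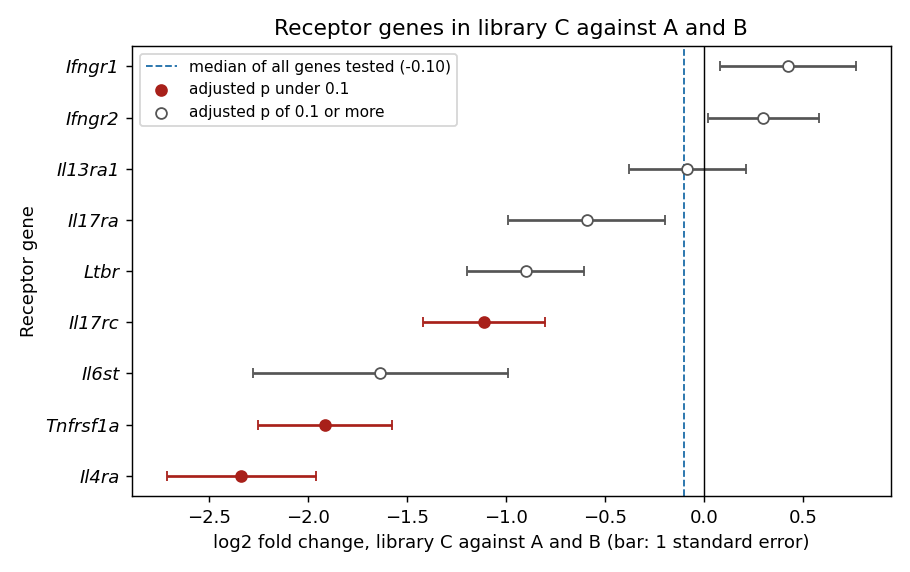
Log2 fold change of library C against A and B for the 9 receptor genes tested, with bars of 1 standard error, filled red where the edgeR adjusted p was under 0.1; the dashed line is the median of all genes tested, −0.10. Il4ra (−2.34), Tnfrsf1a (−1.91) and Il17rc (−1.11) were called lower, and Ifngr1 and Ifngr2 lie to the right of 0 without a call.

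Il6st encodes gp130, the chain that IL-6, IL-11, LIF and oncostatin M receptors share. Il6st (ENSMUSG00000021756, chr13:112464070-112510086, plus strand) had 165, 380 and 118 counts, or 9.10, 16.4 and 4.12 CPM. The 3 libraries were all apart from each other, with 95% counting intervals of 7.77 to 10.6, 14.8 to 18.2 and 3.41 to 4.93 CPM. The difference of C, −1.63 with a standard error of 0.64, was not called (edgeR adjusted p = 0.189).

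The chains that give gp130 its ligand were mostly lower still or absent. Il11ra1, the IL-11 receptor, was the exception, with 198, 191 and 68 counts and 2.44, 1.85 and 0.531 CPM per kilobase. It exceeded Il6st per kilobase in every library, since the ratio of Il6st to Il11ra1 was 0.336, 0.801 and 0.699. Its difference in C was −2.01 on the log2 scale, standard error 0.70, and was not called (edgeR adjusted p = 0.153). Il6ra had 12, 96 and 0 counts and Lifr 5, 13 and 5, while Osmr and Il27ra had none in any library.

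The STAT factor of gp130, Stat3, was at 109, 113 and 85.3 CPM and its feedback inhibitor Socs3 at 21.6, 28.2 and 40.4. Of 12 genes known to respond to gp130 and STAT3, 8 were tested and 1 was lower in C, which was Il4ra itself, with none higher and a median of −0.18. Junb, an AP-1 subunit, was at 223, 226 and 363 CPM, the serum amyloid gene Saa3 at 197, 227 and 275, and the kinase gene Pim3 at 81.9, 115 and 72.3. None of these was called.

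Il2rg encodes the common gamma chain, which IL-2, IL-4, IL-7, IL-9, IL-15 and IL-21 receptors use and which carries JAK3. Il2rg (ENSMUSG00000031304, chrX:101264378-101268255, minus strand) had 0 counts in A, B and C. Taking 3 counts as the limit, its level was below 0.166, 0.130 and 0.105 CPM in the 3 libraries, limits that cover counting error only. A gene model that overlaps it on the same strand, Gm20489, also had 0 counts in all 3 libraries, so the locus had no count under either name.

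The other chains of this family were absent or near the limit as well, in medium to which IL-2, IL-7 and IL-15 had been added. Il2ra and Il2rb had no count, Il7r had 1, 2 and 0, Il9r 3, 10 and 10, and Il21r 0, 3 and 15. Il15ra, which presents IL-15 to neighbouring cells, was the exception, with 419, 259 and 348 counts and 5.20, 2.52 and 2.73 CPM per kilobase. Jak3, the kinase of the common gamma chain, was nonetheless counted at 381, 564 and 778, or 21.0, 24.4 and 27.1 CPM. Stat5b, a factor that these cytokines activate in lymphocytes, was at 8.22, 17.5 and 1.88 CPM and was called lower in C (log2 fold change −2.77, standard error 0.75, edgeR adjusted p = 0.0962). Its log2 difference was −3.22 without A and −2.13 without B.

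ILC3 use the common gamma chain for IL-7, and Il2rg was also a marker of the lymphoid cells in the cultures. Beside it Il2rb, Cd3e, Cd79a, Ncr1 and Ccr6 were at 0 in every library. In sorted populations such as these, fewer cells of a type and less RNA per cell cannot be told apart.

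IL-22, a cytokine for which ILC3 are best known, has a receptor of Il22ra1 and Il10rb. Il22ra1, the chain that non-haematopoietic cells express, had 58, 249 and 5 counts, or 1.25, 4.19 and 0.0679 CPM per kilobase. A and B differed by several fold, and C lay far below either. It was called lower in C (log2 fold change −5.28, standard error 1.30, edgeR adjusted p = 0.0786), and with 5 counts in C and unequal values in A and B the size of the fold is uncertain, at −5.95 on the log2 scale without A and −4.20 without B. The shared chain Il10rb had 1721, 1451 and 2764 counts, or 24.9, 16.5 and 25.3 CPM per kilobase, and was not called. Per kilobase, Il10rb exceeded Il22ra1 by 20.0-fold in A, 3.93-fold in B and 373-fold in C.

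Over the 33 partner chains and related receptors, 11 had no count in any library, 18 were tested, 1 was lower in C (Il22ra1) and none higher, with a median log2 fold change of −0.71. The most abundant of them per kilobase were Tnfrsf12a, the receptor of TWEAK, at 26.8, 38.2 and 44.3 CPM per kilobase, then Il10rb, then the death receptor gene Fas at 9.82, 5.73 and 11.7. None of these was called.

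The ligands themselves were largely missing from the sorted epithelium. Of 23 cytokine genes 13 had no count in any library, among them Ifng, Il17a, Il22, Il13, Il4 and Il6. Il17f had 4, 8 and 0 counts, Lta 0, 28 and 0, and Ltb 6, 5 and 46. The ligands that epithelium is known to make itself were present at low level: Tnf had 146, 453 and 367 counts, Il17c 65, 9 and 147, and Il15 91, 51 and 171. Of 6 ligands tested none was called in either direction.

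Inhibitors of these pathways showed no call in C. All 17 feedback inhibitors were tested, and their median log2 fold change was 0.08. The most abundant per kilobase were Nfkbia, Ptpn2, a phosphatase that acts on JAK and STAT proteins, at 49.4, 39.2 and 40.9 CPM, and Socs3. Usp18 had 0, 60 and 0 counts and Cish 5, 16 and 0. Over the 9 JAK and STAT genes, 1 was lower in C, which was Stat5b, and none higher, with a median of −0.38.

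Across the receptors, 3 of the 9 genes tested were lower in C (Il4ra, Tnfrsf1a and Il17rc) and none was higher, where 5.23% of all genes were called lower and 1.37% higher. As the receptors were chosen with earlier results of these data known, this contrast is a description and not a test. The median log2 fold change of the 9 was −0.90, and C lay below both A and B for 6 of them and above both for 2, beside 41.2% of all genes below. Of the 99 tested genes of the signalling lists outside the 10 receptors, 150 in all, 7 were called, 1 higher and 6 lower, with a median of −0.15, near the background of 6.6%. Removal of the GC trend ended the calls of Il22ra1 (edgeR adjusted p = 0.133), Stat5b (0.144), Tab2 (0.135) and Irf1 (0.129), and removal of the length trend those of Il22ra1 (0.103), Stat5b (0.128) and Tab2 (0.103). List medians did not change when genes at 0 in C, or in both A and B, were set to the bound that 3 counts give. This is no check on the medians, since the bound keeps a gene's direction and each such gene stayed on its side of the median. As all 9 receptors tested had at least 10 counts in every library, the filter on low counts did not decide which of them were tested.

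**Figure D3:**
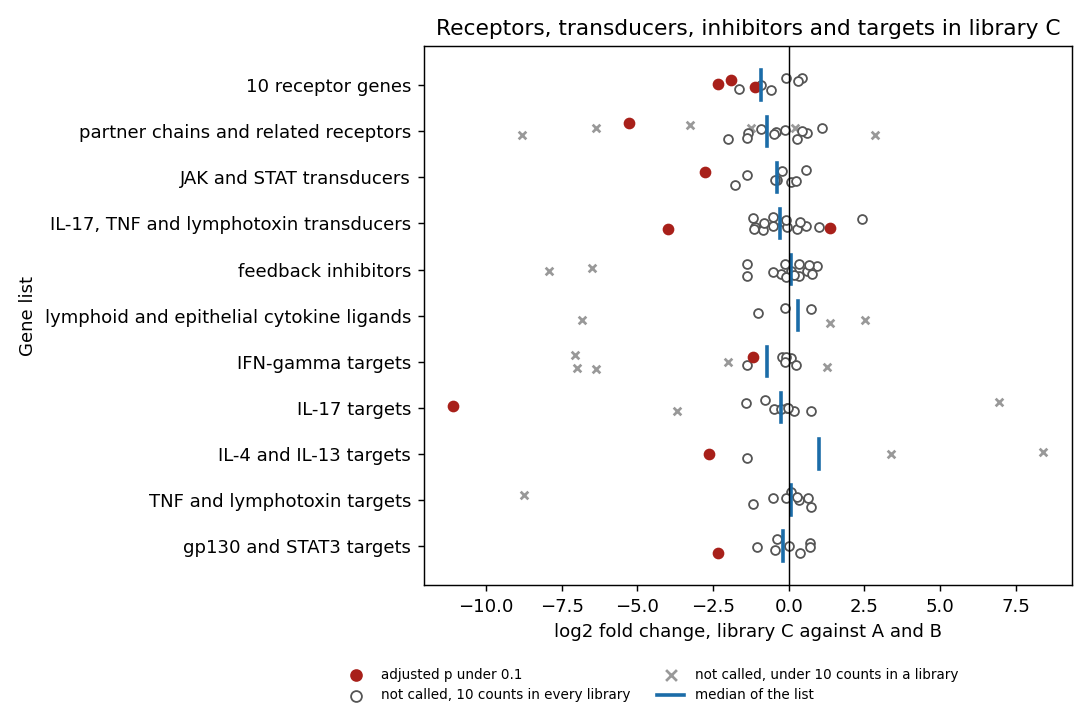
Log2 fold change of library C against A and B for each tested gene of the receptor set and of the 10 signalling lists, red where the edgeR adjusted p was under 0.1, crosses where an uncalled gene had under 10 counts in a library; blue bars are list medians, which run from −0.90 for the receptors to 0.996 for IL-4 and IL-13 targets, where 4 genes were tested. Fitted values beyond about 5 in size belong to genes with 0 or few counts in a library and depend on the prior count.

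The profiles nearest to each receptor called were found among all listed genes by the distance between log2(CPM + 1) values centred over the 3 libraries, where the 3 points share their libraries and a small distance is only a description. Il17rc was nearest to Ripk1 (0.085), the phosphatase gene Ptpn6 (0.166) and the adaptor gene Traf3 (0.224). Il4ra was nearest to Tnfrsf1a (0.303), Clca1 (0.311) and Tnfaip2 (0.487). Tnfrsf1a was nearest to Il11ra1 (0.224), Il4ra (0.303) and Tnfaip2 (0.318). Each of these genes was lowest in C.

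Library C had the most counts, the fewest genes with 10 counts, a mitochondrial share of 2.39% against 2.69% and 2.74% in A and B, and no count of Vim against 46 and 135. Of the 10 epithelial markers, 5 were lowest in C and 4, the 3 keratins among them, highest. The part of these properties in the receptor differences was not tested.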

How the data were processed

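IEC of 3 IEC + ILC3 libraries were profiled by RNA-seq. Trimmomatic 0.39 and Salmon 0.14.1, named with these versions in the submitters' processing notes, served for trimming and quantification, and tximport gave gene totals. What the authors deposited are estimated counts for each Ensembl gene of GRCm38.p6, held as whole numbers, which were used without rounding. The sources used here do not state whether counting used strand. Symbols, positions and merged exon lengths came from GENCODE M21 (GRCm38), which gave 35506 of 35824 genes a symbol; promoters came from RefSeq.

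Counts were TMM-scaled and tested with edgeR 4.0.16 (filterByExpr, glmQLFit, glmQLFTest) in R 4.3.3, with Benjamini-Hochberg adjustment over 13604 genes at 0.1. Each standard error was taken as |log2 fold change| / sqrt(F). Poisson intervals (95%, exact) and the limit of 3 counts cover counting error only, as PCR copies carry no molecular identifier here. No pair of libraries agreed within sampling noise (chi-square per gene 77.5 for A and B, 173 for A and C, 288 for B and C). Tested on simulated counts for this comparison (13604 genes, 3 runs), the test recovered 28% of 2-fold, 74.7% of 4-fold, 84% of 8-fold and 89.3% of 16-fold changes. Of its calls 15.2% were false, more than the threshold of 0.1 allows for. Changes were set only in genes above a minimum mean count, and simulated C had no GC or length trend. These rates therefore do not cover genes with fewer counts or such trends.

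The 10 receptors and the 18 gene lists were chosen with earlier results of these data known. Genes named are all receptors, their partner chains and every called gene of each list. Most of the 3 most abundant genes per kilobase of each list are named too, with the 3 nearest profiles of each called receptor. Ligands and leukocyte markers near 0 are also given. Traf3ip2, Map3k14, Nfkb2, Nfkbiz, Il17rd, Arg1, Cxcl10, Gbp7, Usp18, Cish, Jak2, Jak3, Psmb9, Tap1, Epcam and Vil1 were added after their values were seen. Cdh1, Cldn7 and Elf3, and IFN-gamma, IL-4 and IL-13 targets at or near 0, were also named outside this rule. A few listed genes are not reported here. Alternatives were DESeq2 1.42.0 size factors and Wald test, plain totals, totals without mitochondrial genes, other filters, a threshold of 0.05, loess removal of length and GC trends, and leaving out libraries. Tables were handled in Python 3.11.15 with pandas 2.3.3 and scipy 1.17.1.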

Additional observations from a re-analysis of the deposited data

How the results depend on the processing

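Against 898 genes called over the whole table, 2402 were called with no filter on low counts, 1618 with the DESeq2 Wald test, 533 with the length trend removed, 206 with the GC trend removed and 276 at a threshold of 0.05; the signalling lists gave 19, 12, 4, 3 and 3 in that order against 7. Higher and lower calls split as 187 and 711 in the main comparison, 825 and 1577 with no filter, 344 and 686 with 10 counts in every library, and 15 and 191 with the GC trend removed. The Il17rc log2 fold change of −1.11 lost its call with DESeq2 size factors (−1.10), the length trend removed (−1.24), the GC trend removed (−0.80) and the threshold of 0.05 (−1.11). Ltbr, at −0.90, gained a call with no filter (−0.90, adjusted p = 0.0679), with 10 counts in every library (−0.92, 0.0898) and with the DESeq2 Wald test (−0.90, 0.0994). The cause was not tested. Il4ra, Tnfrsf1a, Traf6 and Clca1 kept their calls at 0.1 in 8 of 8 alternative fits, and at 0.05 in the main fit. With the GC trend removed, the edgeR adjusted p was 0.0805 for Il4ra, 0.0998 for Tnfrsf1a and 0.0659 for Traf6 and Clca1. No value that was called turned its direction in the alternative fits. Of the other calls, Il22ra1 was kept in 5 of 7, Stat5b in 5 of 8, Tab2 in 6 of 8, Irf1 in 7 of 8 and Vim in 6 of 7 of these fits, and all 5 were lost at the threshold of 0.05. Without replicate 1 or 2, with no test, C differed from the other library by −2.28 and −2.39 for Il4ra, −1.83 and −1.99 for Tnfrsf1a, and 0.81 and 0.12 for Ifngr1 on the log2 scale. Without C there is nothing to compare. No paired analysis was possible because there is a single group. Over all genes tested the median moved from −0.10 to −0.25 with no filter and to −0.02 with 10 counts in every library.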
